A study of Mus musculus with 32 samples.

Results

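The interleukin 1 (IL-1) family was followed through cisplatin injury of the kidney by 9 of the 54532 genes in the deposited count table. These were the ligand genes Il1f6, Il1b, Il18 and Il33, the antagonist gene Il1rn, and the receptor genes Il1r1, Il1r2, Il1rl1 and Il1rap. They were taken by gene symbol, and Il1f6 was chosen by its rise from a count of 0 at Day 0 in these same libraries, so its levels over time are given as a description with no test. Kidney RNA came from 32 wild-type C57BL/6 mice in 8 groups of 4, males and females before (Day 0) and on Day 2, Day 3 or Day 5 after a single intraperitoneal injection of cisplatin at 20 mg/kg. The mice were bought at 6 to 8 weeks of age. Day 0 males carry no treatment in the labels and Day 0 females carry cisplatin, whereas the study's text calls Day 0 mice healthy. Whole kidney was sequenced, so fewer cells of a type and less RNA per cell cannot be told apart.

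IL-1 family cytokines start and shape inflammation. The pro-forms of IL-1 beta and IL-18 are cleaved by caspase-1 in the inflammasome, while IL-33 (Il33) is held in the nucleus of stromal, endothelial and epithelial cells and acts as an alarm signal when cells are damaged. IL-36 alpha (Il1f6) is made mainly by epithelia, the kidney tubule among them. Each ligand binds its own receptor chain, IL-1R1 for IL-1 beta and ST2 (Il1rl1) for IL-33, and the accessory chain Il1rap completes both complexes and that of IL-36. The family is held in check by the receptor antagonist Il1rn, which occupies IL-1R1 without signalling, and by the decoy receptor Il1r2.

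Total counts per library lay between 16502107 and 35961325, and 1 count was worth 0.0223 to 0.161 CPM, the library-scaled count used here (TMM factors over all libraries). The summed level of 7 tubule and podocyte markers was between 2199 and 10284 CPM in every group, with none of the 7 at 0 in a whole group. Mitochondrial genes took 42.5% to 79.8% of counts in the male Day 5 libraries and 77.9% in female Day 5 mouse 2, against 4.49% to 24.0% on the earlier days. Xist had 4153 counts and 4 Y-linked genes 387 in the library labelled male Day 5 mouse 1, against 0 to 260 of Xist in the other male libraries, so its Xist count goes against its label. On the CPM scale its Y-linked genes were at 21.6, between the females (0 to 7.16) and the other males (50.5 to 121). Mouse 3 of both Day 0 groups had the fewest genes detected among the Day 0 libraries (17985 and 16265, against 21188 to 23734). Both had 0 counts of Il1f6, Il1b, Il1rn and Il1r2.

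Of the 9 genes, 5 lie in the receptor and ligand clusters of chromosomes 1 and 2 (GRCm38). Il1r2 (chr1:40074079-40125231), Il1r1 (chr1:40225080-40317257) and Il1rl1 (chr1:40429570-40465415) follow each other on the plus strand. Il1f6 (chr2:24215418-24225702) and Il1rn (chr2:24336853-24351494) lie in the ligand cluster, while Il1b lies apart at chr2:129364570-129371139 on the minus strand. Il33 (chr19:29925114-29960718), Il18 (chr9:50554827-50581840) and Il1rap (chr16:26581704-26730117) stand alone. RefSeq promoter windows of 300 bases (GRCm38.p6) were held for 8 of the 9 genes, and Il1f6 had none. The windows of 4 ligand or antagonist genes are shown because the levels of these genes carry the results, 5′ to 3′ on the strand of the gene. They run over chr19:29924863-29925162 for the first listed start of Il33, chr9:50554450-50554749 for Il18, chr2:24336610-24336909 for the first listed start of Il1rn and chr2:129371090-129371389 (minus strand) for Il1b. Capitals mark a match, on either strand, to 1 of 4 motifs, and positions are counted from the start site, with -1 just before it.
Il33: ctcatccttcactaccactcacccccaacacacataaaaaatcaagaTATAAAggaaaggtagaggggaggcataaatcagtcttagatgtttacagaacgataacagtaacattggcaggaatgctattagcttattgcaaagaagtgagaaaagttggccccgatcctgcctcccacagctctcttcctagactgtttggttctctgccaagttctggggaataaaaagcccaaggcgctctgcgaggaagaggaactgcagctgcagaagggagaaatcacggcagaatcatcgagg
Il18: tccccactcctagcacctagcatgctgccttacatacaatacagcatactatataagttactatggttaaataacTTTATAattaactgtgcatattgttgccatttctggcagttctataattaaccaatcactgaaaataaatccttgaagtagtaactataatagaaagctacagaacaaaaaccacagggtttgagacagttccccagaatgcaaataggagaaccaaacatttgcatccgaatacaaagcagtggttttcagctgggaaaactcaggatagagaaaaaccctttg
Il1rn: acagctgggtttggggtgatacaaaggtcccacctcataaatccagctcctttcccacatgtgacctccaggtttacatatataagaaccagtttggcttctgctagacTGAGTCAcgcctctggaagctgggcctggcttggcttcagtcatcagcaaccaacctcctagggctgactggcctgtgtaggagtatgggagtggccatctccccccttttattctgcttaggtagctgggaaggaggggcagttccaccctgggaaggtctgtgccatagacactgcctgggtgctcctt
Il1b: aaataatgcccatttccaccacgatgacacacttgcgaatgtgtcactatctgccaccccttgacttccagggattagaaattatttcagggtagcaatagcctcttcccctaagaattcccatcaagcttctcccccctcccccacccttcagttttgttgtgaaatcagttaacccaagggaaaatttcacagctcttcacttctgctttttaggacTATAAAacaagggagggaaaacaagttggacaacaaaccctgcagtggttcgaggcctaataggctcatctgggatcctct
The motifs searched were AP-1, spelled TGANTCA, the TATA box, spelled TATAAA, the kappa B site and the E-box. No match overlapped another in these windows. The TATA box was matched in windows of Il33, Il18, Il1b and Il1rn and in 13.6% of the 32851 promoter windows of the genome. In the Il1b window it began at position -31 from the start site, and it began at -203 in the first window of Il33 and at -29 in the second, which is not printed. In that of Il18 the match at -175 read on the other strand, as did that at 15 in the third window of Il1rn, not printed either. The AP-1 motif was matched at -141 in the first Il1rn window and in 7.81% of all windows. The kappa B site was matched in 4.51% of all windows, in none of the 4 windows printed and, among the members, in the second window of Il1r1 alone. The E-box CACGTG, in 7.15% of all windows, was matched at 2 places in the window of Il1r2. A match describes the letters and no binding.

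In the Day 0 kidney, length-normalized levels (FPKM) put Il33 highest and Il1f6 lowest in both sexes. Male means were 2.62 FPKM ± 0.800 (SD, n = 4) for Il33, 1.53 ± 0.333 for Il18 and 0.922 ± 0.395 for Il1r1, followed by Il1b at 0.376 ± 0.326 and Il1rap at 0.348 ± 0.167. Neighbours in this order overlapped between mice down to Il1rap. Below Il1rap came a gap with no overlap, to Il1r2 at 0.0352 ± 0.0374, Il1rl1 at 0.0300 ± 0.0215 and Il1rn at 0.0281 ± 0.0199 FPKM. These last 3 overlapped one another. Females had the same order of the first 5 genes, from 2.43 ± 0.841 for Il33 to 0.463 ± 0.156 for Il1rap, and Il1rl1 (0.0753 ± 0.0637) stood above Il1r2 (0.0442 ± 0.0349). The low levels of the decoy receptor, the IL-33 receptor and the antagonist limit what the tests of these genes can show.

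Il1f6, the gene of IL-36 alpha, was listed at 0 counts in all 8 Day 0 mice and was detected on every later day. At Day 2 males had 1, 13, 3 and 7 counts (0.0292, 0.421, 0.120 and 0.259 CPM) and females 0, 5, 3 and 2. At Day 3 males had 47, 37, 36 and 19 counts, a level of 1.37 CPM ± 0.50 (SD, n = 4), and females had 56, 1, 53 and 81, a level of 1.23 ± 0.939. Every male and 3 of 4 females at Day 3 had more counts than any mouse at Day 2. Set against the 3 counts per library that a count of 0 allows, the Day 3 mean was at least 9.24-fold higher than Day 0 in males and at least 12.0-fold higher in females. This bound covers counting error at Day 0 only and not the spread between mice. Female Day 3 mouse 2 (0.0223 CPM) lay below the female floor of 0.102 CPM used for it. At Day 5 the mice of a group split. Males had 2, 0, 13 and 2 counts and females 74, 3, 16 and 1, and male mouse 3 (2.09 CPM) and female mouse 1 (2.62 CPM) alone stood at the level of Day 3. The other 6 mice of Day 5 lay between 0 and 0.549 CPM. Male and female groups did not pass the test of the difference at Day 3 (log2 fold change male over female 0.15, SE 0.78, adjusted p = 0.906), in which 7 of the 9 genes had enough counts to be tested.

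**Figure D1:**
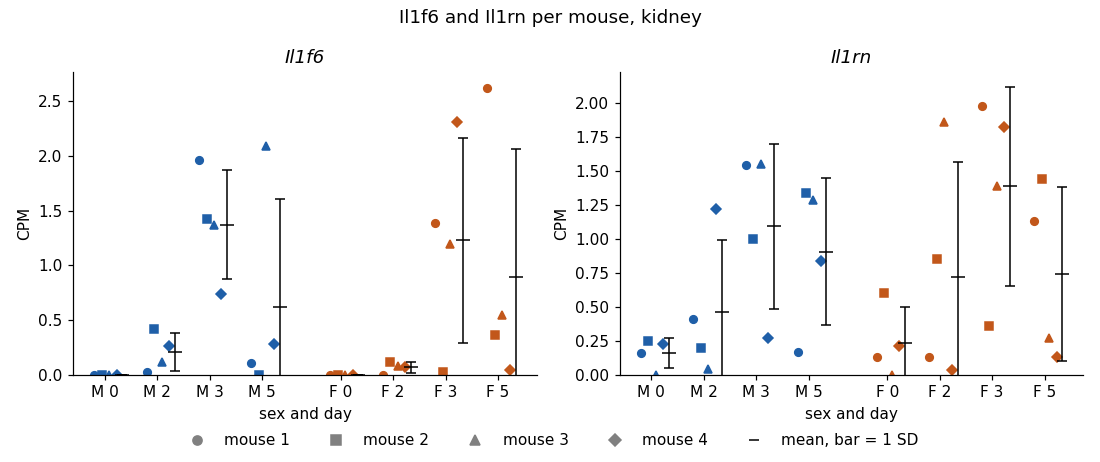
Level of Il1f6 and Il1rn in CPM (vertical axes) in each of the 32 mice, by sex (M, F) and day (horizontal axes); each symbol is 1 mouse, the black mark the mean and the bar 1 SD. Il1f6 is at 0 in the 8 Day 0 mice and reaches 2.31 CPM at Day 3, where male mouse 4 and female mouse 2 are the lowest of their groups for both genes.

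The other IL-36 ligand genes of the chromosome 2 cluster were read in all 32 libraries. Il1f8 (IL-36 beta) had 0 to 4 counts and Il1f9 (IL-36 gamma) 0 to 8, and Il1f5, the antagonist of the IL-36 receptor, had 0 to 30. Il1a and Il1f10 had 0 to 8 and 0 to 2 counts. The IL-36 receptor gene Il1rl2 was measured at Day 0 already, at 1.06 CPM ± 0.792 in males and 1.28 ± 0.819 in females. At Day 3 it was at 2.13 ± 0.327 in males and 1.80 ± 0.370 in females, and it did not pass the test in any comparison with Day 0 (adjusted p = 0.375 in males and 0.520 in females at Day 3).

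The protein-coding genes whose 8 group means lay closest to those of Il1f6 were Adgra1, Socs3, Lcn2, Gm14226 and Egr2, out of 15036 compared. Likeness was the root mean square distance between group means of log2 CPM after each gene's own mean was taken away, and it ran from 0.56 for Adgra1 to 0.82 for Egr2. Adgra1 encodes an adhesion receptor, Socs3 a feedback inhibitor of cytokine signalling, Lcn2 the tubular injury marker NGAL and Egr2 an immediate early transcription factor. Lcn2 stood at 3.12 CPM ± 1.46 in Day 0 males and 36.1 ± 34.1 in Day 3 males, and at 3.96 ± 1.97 and 84.3 ± 75.8 in the same days of females. Socs3 stood at 3.13 ± 2.72 and 19.1 ± 10.1 in males and at 2.88 ± 0.850 and 20.5 ± 12.0 in females. Egr2 was at 0.196 ± 0.233 and 3.55 ± 1.17 CPM in males on these days and at 1.03 ± 0.877 and 2.06 ± 1.22 in females. Gm14226 was at 0.0971 ± 0.0990 and 0.580 ± 0.157 in males and at 0.0976 ± 0.0907 and 0.487 ± 0.0210 in females. The 5 genes were picked for following the group means of Il1f6, so their change from Day 0 is given with no test.

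Within the Day 3 groups the mouse lowest in Il1f6 was also the lowest in Lcn2 and Socs3. Female Day 3 mouse 2, with 1 count of Il1f6, also had the least Lcn2 of its group (10.4 CPM, the others 60.4 to 190) and the least Socs3 (5.00, the others 18.4 to 33.4). The chemokine gene Cxcl1 was at 0.692 CPM in that mouse and at 5.06 to 11.9 in the other 3. Male Day 3 mouse 4, lowest in Il1f6, was likewise lowest in Lcn2 (7.19 CPM), Socs3 (8.24) and Cxcl1 (2.02). At Day 5 the mice highest in Il1f6 were highest in Lcn2 too, at 169 CPM in male mouse 3 and 115 in female mouse 1. The other like genes did not all have this order. Gm14226 lay between 0.469 and 0.513 CPM in all Day 3 females, and in Day 5 females Egr2 was highest (2.31 CPM) in mouse 4, the lowest in Il1f6. These points share library and depth, and this is a description with no test.

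**Figure D2:**
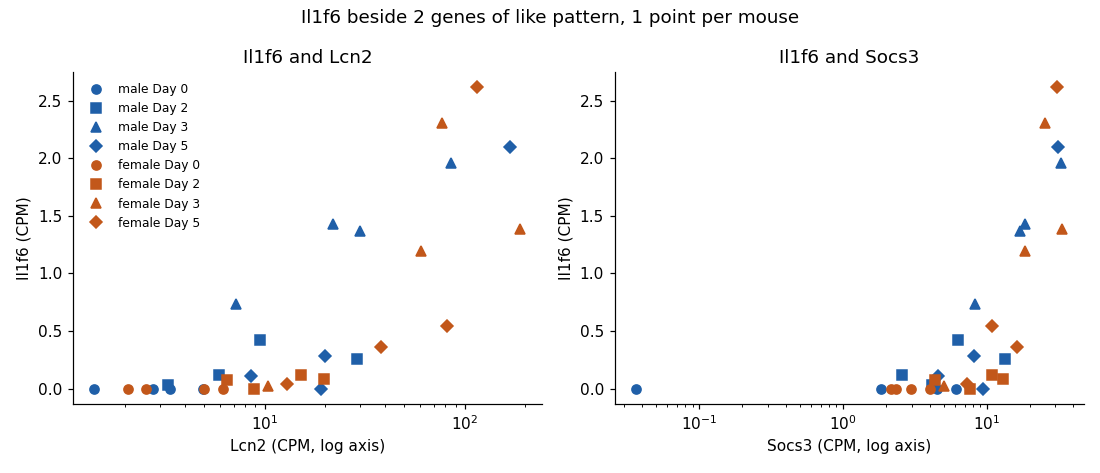
Il1f6 in CPM (vertical axes) beside Lcn2 and Socs3 in CPM (horizontal log axes), 1 point per mouse, with color for sex and symbol for day. The mice with over 1 CPM of Il1f6 lie toward the right of both panels, and the 8 Day 0 mice lie at 0 of Il1f6 with Lcn2 between 1.41 and 6.21 CPM.

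Il33 stood higher than at Day 0 in the mean of every later group of both sexes, by 1.87- to 2.77-fold in mean CPM. It passed the test in 2 of the 6 comparisons with Day 0. Male levels at Day 0 were 7.54, 4.65, 9.74 and 8.91 CPM. They were 10.6, 15.3, 12.3 and 21.9 at Day 2, 21.9, 12.8, 12.5 and 10.5 at Day 3, and 12.3, 25.5, 31.6 and 16.0 at Day 5. All 12 treated males lay above all 4 Day 0 males. The share of all genes with groups apart in this way was not counted, here or for the other members. Female levels at Day 0 were 6.71, 5.00, 5.88 and 10.5 CPM. They were 9.89, 17.7, 15.6 and 11.7 at Day 2, 15.9, 11.3, 18.5 and 16.9 at Day 3, and 18.8, 21.5, 11.4 and 12.2 at Day 5. Treated females lay above the Day 0 females apart from the lowest Day 2 mouse, which lay below Day 0 mouse 4.

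**Figure D3:**
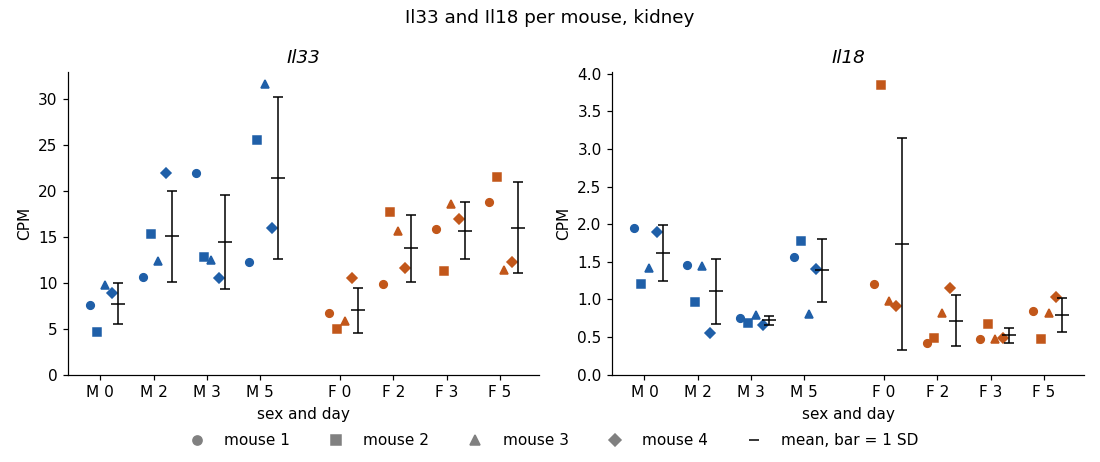
Level of Il33 and Il18 in CPM (vertical axes) in each mouse, by sex (M, F) and day (horizontal axes); symbols are mice, black marks the mean and bars 1 SD. Il33 lies above Day 0 on the later days, from a male mean of 7.71 CPM at Day 0 to 21.3 at Day 5, and Il18 is lowest at Day 3, at 0.726 CPM in males and 0.524 in females.

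The rise of Il33 in males passed at Day 5 (log2 fold change 1.52, SE 0.35, adjusted p = 0.0195), when 1 of the 5 members with enough counts passed, beside 19.2% of all genes tested. Without the library labelled male Day 5 mouse 1 the change was 1.73 (adjusted p = 0.00565), and without Day 0 mouse 3 it was 1.67 (adjusted p = 0.0210). The call was lost without Day 0 mouse 1 or 2 or without Day 5 mouse 2 or 3, with log2 fold changes of 1.27 to 1.51 and adjusted p of 0.0563 to 0.0624. In females Il33 passed at Day 3 (1.14, SE 0.27, adjusted p = 0.0489), as 1 of 6 members tested, beside 5.54% of all genes. That call sat at the threshold, and leaving out any 1 of 7 of the 8 mice ended it (1.0 to 1.27, adjusted p from 0.0525 to 0.168). Without Day 0 mouse 4, the highest Day 0 female, it was 1.40 (adjusted p = 0.00243). The other 4 comparisons had close values that did not pass. In males they were 0.97 (SE 0.30, adjusted p = 0.0818) at Day 2 and 0.90 (SE 0.30, adjusted p = 0.0573) at Day 3. In females they were 0.96 (SE 0.30, adjusted p = 0.0883) at Day 2 and 1.18 (SE 0.33, adjusted p = 0.169) at Day 5. A single fit over the 8 groups, and the DESeq2 Wald test, passed Il33 in all 6 comparisons (adjusted p from 0.000859 to 0.0404 and from 0.00113 to 0.0438).

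The levels of markers of other cells and of another tissue were read beside Il33. The summed level of 5 stromal markers was 222, 705, 1274 and 525 CPM in Day 5 male mice 1 to 4, the order of the mice in Il33, against 103 to 411 in Day 0 males. That of 6 urothelial markers had the same order, at 36.4, 139, 163 and 94.5 against 26.6 to 48.2. That of 5 endothelial markers was 212 to 467 against 178 to 257 and did not have this order, with mouse 4 the highest. The overlap of these 3 sums with Day 0 came through the library labelled male Day 5 mouse 1 alone, and the other 3 mice lay above all Day 0 males. The male endothelial sum was above Day 0 without overlap at Day 2 (277 to 360) and Day 3 (286 to 302) too. In females the stromal sum was 118 to 294 CPM at Day 0, 188 to 254 at Day 3 and 166 to 499 at Day 5, and the endothelial sum 171 to 258, 182 to 258 and 173 to 278. None of these 16 markers was at 0 in a whole group. The sum of 5 adrenal cortex markers did not overlap in males, at 0.729 to 15.3 CPM at Day 0 and 23.6 to 118 at Day 5, with Hsd3b6 at 0 in both groups. In Day 0 females it was 2.98 to 233 CPM. It was 22.5, 19.3, 1269 and 1571 in female Day 3 mice 1 to 4, the last 2 being the highest in Il33, and 399.7 to 1012 in Day 5 females. None of the 5 was at 0 in any of these 3 female groups. The part of cell and tissue composition in the level of Il33 was not tested.

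Il18, whose product is released after caspase-1 cleavage, was lower at Day 3. Levels in Day 0 males were 1.95, 1.20, 1.42 and 1.90 CPM, and in Day 3 males 0.750, 0.694, 0.797 and 0.661. The groups did not overlap, and the means were 1.62 ± 0.366 and 0.726 ± 0.0603 (SD, n = 4). Il18 fell by 1.15 on the log2 scale (SE 0.31, adjusted p = 0.0311). It was the 1 member of 5 tested that passed in Day 3 males, beside 24.5% of all genes. The call rested on small differences in p. It was lost without male Day 0 mouse 1 (log2 fold change -1.07, adjusted p = 0.0673) or without any 1 of the 4 Day 3 males (-1.19 to -1.10, adjusted p from 0.0867 to 0.0952), and held without Day 0 mouse 3 (-1.20, adjusted p = 0.00945). It was also lost in a single fit over the 8 groups (-1.15, adjusted p = 0.0622) and with no filter on low counts (-1.12, adjusted p = 0.101). Sums of 2 leukocyte lists were lower beside it and that of neutrophils was not. Those of 10 monocyte and macrophage markers were 127 to 211 CPM in Day 0 males and 93.2 to 124 in Day 3 males, and those of 7 T cell markers 4.39 to 9.72 and 2.42 to 3.66, without overlap and with no marker at 0 in a whole group. That of 10 neutrophil markers was 1.41 to 2.47 and 2.29 to 5.59 CPM, with Ly6g and Stfa2l1 at 0 in both groups. The part of these cells in the level of Il18 was not tested.

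Female levels of Il18 had the same separation. They were 1.20, 3.85, 0.979 and 0.917 CPM at Day 0 and 0.471, 0.669, 0.472 and 0.484 at Day 3, and every Day 3 female lay below every Day 0 female. Day 0 mouse 2 stood far above the rest of its group. The log2 fold change of -1.74 (SE 0.55) did not pass (adjusted p = 0.0767). Without Day 0 mouse 4 it was -1.96 and passed (adjusted p = 0.0226). The DESeq2 Wald test and a single fit over the 8 groups passed it (-1.71, adjusted p = 0.0189, and -1.72, adjusted p = 0.00626). At Day 2 it was -0.53 (SE 0.41, adjusted p = 0.417) in males and -1.29 (SE 0.60, adjusted p = 0.206) in females. By Day 5 male levels were 1.57, 1.78, 0.805 and 1.40 CPM, overlapping Day 0 (-0.15, SE 0.44, adjusted p = 0.836), and female levels were 0.481 to 1.03 (-1.11, SE 0.63, adjusted p = 0.409). The female T cell sum was 5.50 to 12.9 CPM at Day 0 and 2.14 to 4.89 at Day 3, without overlap. The female sums of macrophage and neutrophil markers overlapped between these days. The part of these cells in the female level was not tested.

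Il1b, the gene of the IL-1 receptor's main inflammatory ligand, passed in no comparison. Its Day 0 levels were the most uneven of the ligands. Males had 12, 15, 0 and 27 counts (0 to 1.55 CPM), and females had 11, 20, 0 and 143 (0 to 3.86 CPM). At Day 3 the mice of a sex were close together, with 27, 26, 27 and 26 counts in males (1.04 CPM ± 0.0571) and 33, 33, 27 and 20 in females (0.683 ± 0.115). The Day 3 males all lay above the Day 3 females, and the difference did not pass (log2 fold change 0.57, SE 0.21, adjusted p = 0.0781). At Day 5 males stood at 1.23, 4.90, 5.96 and 1.96 CPM, from 14 to 37 counts, and females at 0.743, 1.32, 0.823 and 0.857. Against Day 0 the male change was 2.33 (SE 0.97, adjusted p = 0.117), and against Day 5 females it was 1.97 (SE 0.57, adjusted p = 0.140). The change from Day 0 passed in the DESeq2 Wald test (2.32, adjusted p = 0.0486) and in a single fit over the 8 groups (2.25, adjusted p = 0.0428). Left without the library labelled male Day 5 mouse 1, the difference from Day 5 females was 2.33 and passed (SE 0.53, adjusted p = 0.0108). In that setting 17% of all genes passed, against 0.276% with all mice. In the DESeq2 Wald test with all mice the difference passed too (1.98, adjusted p = 0.0181), beside 5.63% of all genes.

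Markers of neutrophils and macrophages were read beside Il1b and the decoy receptor in these males. The sum of 10 neutrophil markers was 11.3, 236, 99.4 and 41.0 CPM in the 4 Day 5 males, while it was 1.41 to 2.47 in Day 0 males and 2.10 to 9.91 in Day 5 females. Its order over the Day 5 males was not that of Il1b or Il1r2. Ly6g, Mmp8 and Stfa2l1 were at 0 in all Day 0 mice, and none of the 10 was at 0 in all Day 5 males. The sum of 10 monocyte and macrophage markers was 90.6, 223, 298 and 212 CPM in the Day 5 males, the order of the mice in Il1b, and 127 to 211 in Day 0 males, with none of the 10 at 0 in either group. The part of these cells in the levels was not tested.

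Il1rn, the receptor antagonist, had more counts at Day 3 than at Day 0. Males had 3, 5, 0 and 4 counts at Day 0 and 37, 26, 41 and 7 at Day 3, with no overlap between 0.161 CPM ± 0.113 and 1.09 ± 0.605. Females had 4, 22, 0 and 8 counts at Day 0 and 80, 16, 62 and 64 at Day 3, from 0.237 ± 0.260 to 1.39 ± 0.731 CPM. The lowest Day 3 mice were male mouse 4 and female mouse 2, the mice lowest in Il1f6. These mice were also the lowest of their groups in summed neutrophil markers (2.29 and 1.63 CPM, the others 2.47 to 5.59 and 3.93 to 7.55) and the highest in tubule and podocyte markers (9230 and 9569 CPM, the others 6021 to 8634 and 4520 to 5787). The part of these cells in the level of Il1rn was not tested. In males Il1rn was under the count filter. It came over the filter, through its Day 3 counts, without Day 0 mouse 3 (2.32, adjusted p = 0.0217) or Day 0 mouse 4 (3.04, adjusted p = 0.0468), so these calls support nothing. In females Il1rn was over the filter through its Day 3 counts too, and the change of 2.45 (SE 0.88) did not pass (adjusted p = 0.104). The DESeq2 Wald test passed both (males 2.83, adjusted p = 0.00850, and females 2.52, adjusted p = 0.0183). These calls rest on the Day 3 counts likewise and support nothing. At Day 2 male counts were 14, 6, 1 and 33 and female counts 4, 37, 66 and 1. At Day 5 they were 3, 9, 8 and 6 in males and 32, 12, 8 and 3 in females.

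The balance of antagonist to ligand was read as the log2 ratio of Il1rn to Il1b, with 1 count added to each gene. In males it was -1.40 ± 1.04 (SD, n = 4) at Day 0 and -0.18 ± 1.08 at Day 3, a difference of 1.22 (exact permutation p = 0.2, adjusted p = 0.4 over 4 ratio tests). In females it was -1.28 ± 1.92 and 0.76 ± 1.19, a difference of 2.05 (exact permutation p = 0.0857, adjusted p = 0.343). Neither passed. The smallest unadjusted p this design allows is 0.0286, and 1 ratio alone at that value would not pass after adjustment over 4 tests. The test could thus hardly pass, and no conclusion is drawn from it. The female difference was 1.14 without Day 0 mouse 4, the mouse with 143 counts of Il1b, and 1.14 to 2.63 over all mice left out. Day 0 mouse 3 of each sex had 0 counts of both genes, so its ratio of 0 came from the added count alone. Without that mouse the difference was 1.685 in males and 2.474 in females.

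Il1r1, the signalling receptor of IL-1 beta, stood between 3.38 and 9.54 CPM in the Day 0 mice and between 8.50 and 11.2 in the Day 3 mice. Female levels were 5.41, 4.42, 3.38 and 7.58 at Day 0 and 10.3, 8.95, 9.51 and 9.43 at Day 3, and these groups did not overlap. The change did not pass (0.86, SE 0.26, adjusted p = 0.0720). It passed without female Day 0 mouse 4 (1.10, adjusted p = 0.00543) and in the DESeq2 Wald test (0.89, adjusted p = 0.0188). In males the changes were 0.63 (SE 0.30, adjusted p = 0.145) at Day 3 and 0.90 (SE 0.33, adjusted p = 0.0834) at Day 5. Without male Day 0 mouse 4, the highest of its group, they were 0.95 (adjusted p = 0.0186) and 1.19 (adjusted p = 0.0283) and passed. Mouse 4 of both Day 0 groups stood apart in markers of other cells. Its summed adipocyte markers were 783 CPM in the male and 445 in the female, against 97.4 to 117 and 134 to 243 in the others, and its stromal markers 411 and 294, against 103 to 141 and 118 to 147. Male endothelial markers were above Day 0 at Day 3, as given beside Il33. The part of these cells in the level of Il1r1 was not tested. Il1rap, the shared accessory chain, had group means of 3.82 to 6.18 CPM and changes between -0.33 and 0.61 against Day 0, none of which passed.

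**Figure D4:**
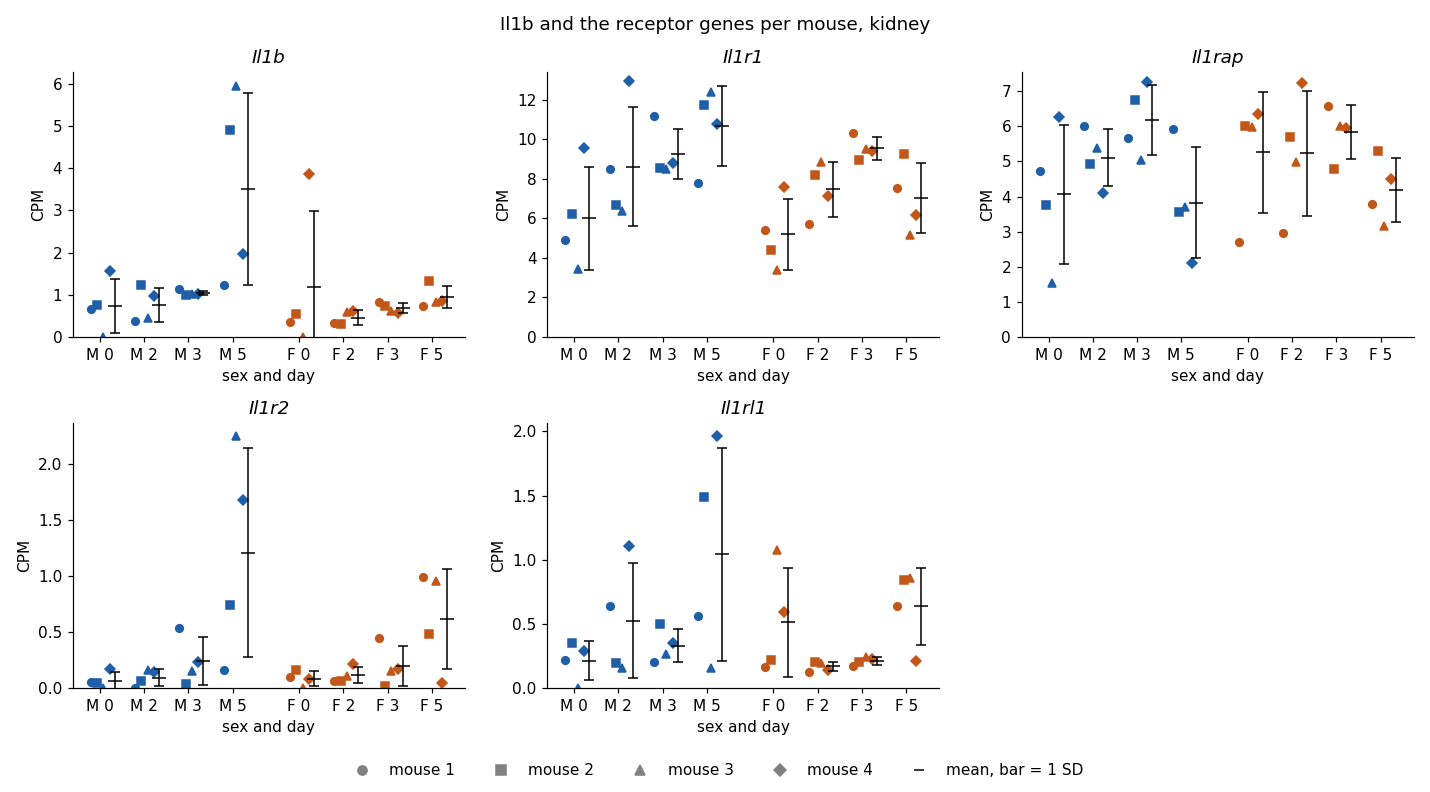
Level of Il1b and of the receptor genes Il1r1, Il1rap, Il1r2 and Il1rl1 in CPM (vertical axes, a scale for each gene) in each mouse, by sex (M, F) and day (horizontal axes); symbols are mice, black marks the mean and bars 1 SD. Il1b and Il1r2 reach their highest levels in Day 5 males, at 5.96 and 2.25 CPM, and Il1rap has group means between 3.82 and 6.18 CPM.

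Il1r2, the decoy receptor, was close to the limit of detection up to Day 3. Day 0 males had 1, 1, 0 and 3 counts, and Day 5 males had 3, 5, 14 and 12 (0.168, 0.742, 2.25 and 1.68 CPM). The summed counts were 5 and 34, a ratio of 14.9 after scaling, with an exact 95% interval of 5.80 to 48.9 that covers counting error only. The groups overlapped through the library labelled male Day 5 mouse 1. Day 0 females had 3, 6, 0 and 3 counts and Day 5 females 28, 4, 28 and 1. Il1r2 was under the count filter in every comparison with Day 0. With no filter the male Day 5 change was 4.06 (adjusted p = 0.0533), and it passed in the DESeq2 Wald test (4.26, adjusted p = 0.00284) and in a single fit over the 8 groups (4.10, adjusted p = 0.00500). Il1r2 had enough counts for these tests only through the later groups, where it was high, so these calls support nothing. The log2 ratio of Il1r2 to Il1r1 at Day 3 differed from Day 0 by 0.46 in males (exact permutation p = 0.457, adjusted p = 0.610), or by 0.084 to 0.93 over the mice left out (without Day 3 mouse 1 and Day 3 mouse 2), and by -0.30 in females (exact permutation p = 0.771). Il1rl1, the IL-33 receptor, had 0 to 30 counts in all 32 libraries, with 4, 7, 0 and 5 in Day 0 males and 10, 10, 1 and 14 in Day 5 males, and passed in no comparison in which it was tested. In a single fit over the 8 groups the male Day 5 change of Il1rl1 was 2.29 and passed (adjusted p = 0.0286). The sum of 5 mast cell and basophil markers was 2.12, 7.28, 0.644 and 9.26 CPM in these mice, the order of their Il1rl1 levels (0.559, 1.48, 0.161 and 1.96 CPM), and 0.401 to 3.28 in Day 0 males, with Mcpt8 at 0 in both groups. The part of these cells in the level of Il1rl1 was not tested.

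**Figure D5:**
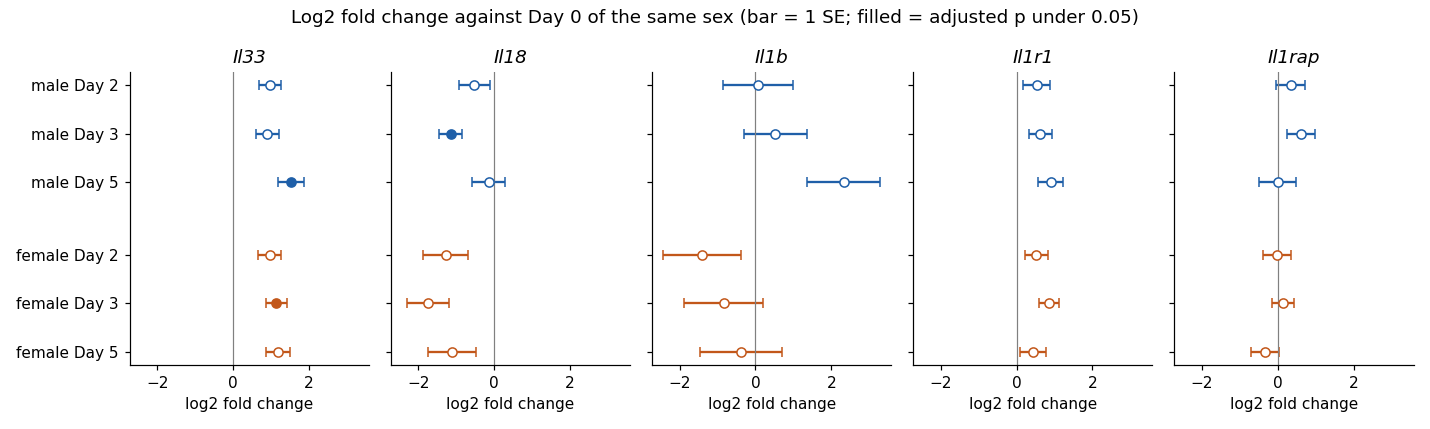
Log2 fold change (horizontal axes) of the 5 members with enough counts in all 6 comparisons with Day 0 (rows, by sex and day); bars are 1 SE and filled points passed at an adjusted p under 0.05. Il33 lies above 0 in all 6 rows and passed in males at Day 5 (1.52) and females at Day 3 (1.14), and Il18 lies below 0 in all 6 and passed in males at Day 3 (-1.15).

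No member passed in Day 2 males, Day 2 females or Day 5 females, where 5, 5 and 6 members were tested and 3.16%, 1.93% and 0.258% of all genes passed. Between the sexes no member passed at any day. The members tested were 5 at Day 0, 6 at Day 2, 7 at Day 3 and 7 at Day 5, and the shares of all genes that passed were 0.449%, 1.47%, 21.3% and 0.276%. For Il33 the ratio of male to female mean CPM was 1.10 at Day 0, 1.10 at Day 2, 0.922 at Day 3 and 1.34 at Day 5. The interaction of sex and day passed for 0 of 7 members at Day 2 and 0 of 7 at Day 3, where 0% and 0.0114% of all genes passed. A difference in response between the sexes was thus not detectable for these members at Day 2 or Day 3, and no interaction was run for Day 5.

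The other genes of the IL-1 pathway were read from a list of 66 genes that holds none of the members. In males, 2 of 46 tested were higher at Day 2, 10 were higher and 1 lower of 46 at Day 3, and 9 were higher and 3 lower of 45 at Day 5. In females, 1 of 49 was higher at Day 2, 3 of 49 at Day 3 and 0 of 46 at Day 5. Over all genes the shares that passed on Day 2, Day 3 and Day 5 were 3.16%, 24.5% and 19.2% in males and 1.93%, 5.54% and 0.258% in females in both directions together. By direction, 1.81%, 11.4% and 8.98% of all genes were higher and 1.35%, 13.1% and 10.2% lower in males, and 0.774%, 1.26% and 0.185% were higher and 1.16%, 4.28% and 0.0738% lower in females. Lcn2 is 1 of the genes counted as higher in Day 3 and Day 5 males and Day 3 females, and since it was also picked for following Il1f6 its calls support nothing. Cxcl1, counted as higher in Day 2 and Day 3 males, came over the filter there through its later counts, so these calls support nothing either. The median log2 fold change over the list was 0.15, 0.25 and 0.61 in males and 0.38, 0.48 and 0.35 in females, beside 0.02 to 0.04 over all genes. Without the library labelled male Day 5 mouse 1, a setting chosen after the data were seen, 13 were higher and 3 lower in Day 5 males, beside 11.4% and 14.5% of all genes. Without Day 0 mouse 3 of the same sex, chosen likewise, 7 were higher in Day 2 males beside 6.33% of all genes. In Day 3 males 15 were higher and 3 lower, beside 19.5% and 19.1%, and in Day 5 males 14 were higher and 2 lower, beside 9.68% and 10.2%. None passed in Day 3 females, nor did any of all genes (0%), and Icam1 (2.49, adjusted p = 0.0713) and Ikbkb (0.70, adjusted p = 0.0713) missed the threshold. The genes that passed were known targets of the pathway, NF-kB factors and inhibitors, adaptors or kinases, and the receptor Sigirr. None of the inflammasome genes and processing proteases passed against Day 0, with 7 to 10 of 15 tested.

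Among the targets, Icam1 and Cxcl1 had the smallest adjusted p. Icam1, an adhesion molecule for leukocytes, rose from 8.64 CPM ± 2.36 at Day 0 to 26.5 ± 5.76 at Day 3 in males (log2 fold change 1.62, SE 0.25, adjusted p = 0.00731) and from 5.41 ± 3.84 to 36.2 ± 14.9 in females (2.72, SE 0.56, adjusted p = 0.0465). Cxcl1, a neutrophil chemokine, rose in males from 0.226 ± 0.159 to 5.34 ± 2.33 CPM at Day 3 (4.60, SE 0.74, adjusted p = 0.00819), and in females it was at 0.477 ± 0.481 and 6.66 ± 4.87 (3.72, SE 1.03, adjusted p = 0.0581). With 0 to 7 counts in Day 0 males, Cxcl1 came over the filter through its Day 3 counts, so the male call supports nothing. Of the NF-kB group, Nfkbiz, an atypical inhibitor that acts in the nucleus, rose in males at Day 2 (1.21), Day 3 (1.69, SE 0.24, adjusted p = 0.00599) and Day 5 (1.65). Rel rose in Day 3 males (0.87, SE 0.21, adjusted p = 0.0224). Of the kinases, Ikbkb rose in Day 3 males (0.61, SE 0.11, adjusted p = 0.0110) and Day 3 females (0.68, SE 0.15, adjusted p = 0.0467), and its scaffold partner Ikbkg in Day 3 males (0.56, SE 0.12, adjusted p = 0.0149).

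Sigirr, a receptor that damps IL-1 family signalling, was the receptor or regulator of the list that passed. It fell from 116 CPM ± 36.4 in Day 0 males to 33.9 ± 17.3 in Day 5 males (log2 fold change -1.72, SE 0.35, adjusted p = 0.0140), and by more without the library labelled male Day 5 mouse 1 (-2.13, adjusted p = 0.00102). Female means were 148 ± 56.4 and 77.4 ± 28.3 CPM (-0.94, SE 0.36, adjusted p = 0.263). The summed tubule and podocyte markers moved with it, from 7043 to 9790 CPM in Day 0 males to 2199 to 5783 in Day 5 males, and their part in the fall was not tested. At Day 3 Sigirr was higher in males than in females (0.28, SE 0.06, adjusted p = 0.0142).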

How the data were processed

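Kidney RNA of 32 mice was sequenced as paired-end reads of 150 bp, 1 library per mouse. The authors aligned the reads to GRCm38 and deposited raw read counts per gene and FPKM values for the same libraries. The submitters' processing notes list GRCm39, HTSeq and DESeq2, and 98.3% of the 54409 gene IDs matched to a GRCm38 annotation had its coordinates, so GRCm38 was used. Versions, annotation and strandedness are not given in the sources used here, so reads of overlapping antisense genes cannot be told apart. The deposited FPKM divide by gene length and an effective library size, and served to order levels between genes.

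For the tests, the quasi-likelihood method of edgeR 4.0.16 (R 4.3.3) was run on the counts after TMM scaling and filterByExpr, with robust dispersions and a fit per comparison of the groups it concerns, with Benjamini-Hochberg adjustment over all genes tested. A gene passed at an adjusted p under 0.05, and 14969 to 17598 genes were tested in a comparison. CPM used TMM factors over all libraries. Il1f6 was not tested between days. Ratios of 2 genes were tested by two-sided exact permutation. The 9 members, the lists and the tests were chosen with earlier results of these data known. The genes named are the members, the listed ligand and receptor genes that passed, the 2 genes of each other list with the smallest adjusted p against Day 0, the 5 genes most like Il1f6 in pattern, and marker genes. The test was run on simulated counts first. Mice of a group were taken as separate animals. The p-values measure the spread between these 4 mice. DESeq2 1.42.0, other filters and scalings, a replicate block and leaving out each mouse were the alternatives.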

Additional observations from a re-analysis of the deposited data

Results flagged for a closer look

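In groups of 4, a mouse was noted when its gap to the nearest of the others, as a share of the group's range, was over Dixon's critical value for a group of that size. Of 70 groups with any spread, 6 had such a mouse, and chance gives about 1 in 20. No cause was tested for any of them.

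Il1f6 in male Day 5 mouse 3 was 2.09 CPM (13 counts), with the other 3 mice at 0 to 0.281. Il1b in female Day 0 mouse 4 was 3.86 CPM (143 counts), with the others at 0 to 0.550. Il1r1 in male Day 3 mouse 1 was 11.2 CPM, with the others at 8.50 to 8.82. Il1rap in female Day 0 mouse 1 was 2.69 CPM, with the others at 5.97 to 6.36. Il18 in female Day 0 mouse 2 was 3.85 CPM (140 counts), with the others at 0.917 to 1.20, and in female Day 3 mouse 2 it was 0.669 CPM, with the others at 0.471 to 0.484.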

How the results depend on the processing

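The counts of members that passed depended on the test. In males the DESeq2 Wald test passed 1 at Day 2, 3 at Day 3 and 3 at Day 5 in place of 0, 1 and 1, and in females 1, 4 and 1 in place of 0, 1 and 0. It also passed 1 between the sexes at Day 5 in place of 0. Of all genes it passed 13.5%, 25.5% and 21.2% in males on these days, 10.7%, 16.7% and 3.79% in females and 5.63% between the sexes at Day 5. A single fit over the 8 groups passed 1 in Day 2 males, 5 in Day 5 males, and 2, 3 and 1 in Day 2, Day 3 and Day 5 females, beside 12.9%, 31.1%, 21.8%, 23.4% and 10.9% of all genes. Among these, the DESeq2 calls of Il1rn at Day 3 and the calls of Il1r2 in Day 5 males support nothing, as given above. In Day 3 males no filter on low counts passed 0 and a minimum of 10 counts in every library passed 2, and in Day 3 females DESeq2's size factors passed 0. The shares of all genes in these settings and in the block below are not given here. These counts are thus no result about the members. With the mouse number as a replicate block, 0 members passed in Day 3 males (Il18 -1.13, adjusted p = 0.120) and 0 in Day 3 females (Il33 1.17, adjusted p = 0.137), and the block changed no other count of members. In none of the 10 comparisons did all 4 pairs of same-numbered mice deviate together with a correlation over 0.1, so the labels' numbers were not taken as pairs. The nearest was male against female at Day 0, with 3 of 4 pairs over 0.1 and the highest at 0.481.

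Leaving out 1 mouse gave 0 to 1 members in Day 2 males, 0 to 3 in Day 3 males, 0 to 2 in Day 5 males, 0 to 1 in Day 2 females, 0 to 3 in Day 3 females, 0 to 1 in Day 5 females and 0 to 1 between the sexes at Day 5. It gave 0 in the other comparisons of sex and both interactions. The share of all genes moved too. Without male Day 0 mouse 3 it was 14%, 38.6% and 19.9% in males on Day 2, Day 3 and Day 5. Without female Day 0 mouse 3 it was 1.93%, 0% and 0.298% in females. Between the sexes at Day 5 it was 17% without male Day 5 mouse 1. Shares for the other mice left out are not given here, so these counts are no result about the members. The Day 3 male counts hold the Il1rn calls that support nothing. The log2 ratio of Il1r2 to Il1r1 in females changed sign from -0.303 to 0.078 with FPKM, to 0.036 without Day 0 mouse 2 and to 0.297 without Day 3 mouse 2, and ran from -0.767 to 0.297 over the mice left out. Of the other pathway genes, the DESeq2 Wald test passed 10 in Day 2 males in place of 2, and 9, 13 and 4 in Day 2, Day 3 and Day 5 females in place of 1, 3 and 0. Every alternative kept the direction of Il33 in Day 5 males (1.27 to 1.73) and Day 3 females (1.0 to 1.40) and of Il18 in Day 3 males (-1.27 to -1.06). The cause of these shifts was not tested. At 1 count per 0.0223 to 0.161 CPM, Il1f6, Il1rn, Il1r2 and Il1rl1 were limited by depth.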
